A study of Mus musculus with 10 samples.

Results

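The 10 genes described here encode enzymes that build, salvage or convert nicotinamide adenine dinucleotide (NAD) and its phosphate (NADP): Nampt, Naprt, Nmrk1, Nmnat1, Nmnat3, Nadsyn1, Nadk, Nadk2, Nnmt and Nnt. They were chosen by name, out of 27876 gene symbols in a deposited table of 85107 transcripts, and all 10 were found there, with 52 transcript rows in all. Each gene is represented by the row with the highest mean level, and all 10 such rows reached a mean of 1 CPM (counts per 1000000 counted reads).

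RNA was sequenced from kidney tissue of wild-type mice killed on day 14, under 1 batch label. In 5 mice the drinking water held quinolinic acid at 0.5 g/L, and 5 further mice had vehicle. The labels give no strain, age or sex, do not say what the vehicle was, and do not say whether kidney injury had been induced. The only values used are those of a finished comparison, made by the authors with edgeR's likelihood-ratio test, so no value of a single mouse and no spread between mice can be shown, and sequencing depth is unknown. The column names read vehicle versus quinolinic acid without naming the numerator, so each log2 fold change, called a log2 difference below, keeps its deposited sign, and a positive sign is not read as more or as less RNA after quinolinic acid.

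NAD carries electrons in metabolism and is also used up by sirtuins, poly-ADP-ribose polymerases and CD38, so cells must keep replacing it. Nicotinamide, nicotinic acid and nicotinamide riboside each enter through an enzyme of their own, and quinolinic acid, the end product of the tryptophan route, enters through quinolinate phosphoribosyltransferase (Qprt). The kidney, its proximal tubule above all, is among the organs that can make NAD by all of these routes. The question put to these genes is whether a load of the NAD precursor quinolinic acid goes with a different level of their transcripts.

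Tissue identity was checked first. All 10 proximal tubule markers were measured at 30.5 CPM or more, up to 1644 CPM, and the thick ascending limb marker Umod stood at 1274 CPM per the authors' deposited table, so the label of kidney tissue was borne by its markers. Markers of podocytes (4), endothelium (4), macrophages (4) and fibroblasts (6) were also all above 1 CPM, which makes each level below a mean over many cell types. In such bulk tissue, fewer cells of a type and less RNA per cell cannot be told apart.

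No NAD enzyme passed the test. Of the 10 members, 0 had an adjusted p under 0.05 in the authors' likelihood-ratio test, where 0.0141% of all transcripts did, and 0 had an unadjusted p under 0.05, where 4.09% of the 13115 genes of at least 1 CPM did. The same held for all 52 rows, whose smallest unadjusted p was 0.0672 per the authors' deposited table. Among the 10 genes 9 were positive and 1 negative, and their median log2 difference was 0.13, a 1.09-fold difference. Positive signs were common in the table as a whole: 71.8% of genes of at least 1 CPM had one, with a median log2 difference of 0.08 and values from -0.01 to 0.16 in the middle 50%.

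The intervals set a limit on how large a difference could have gone unseen. Approximate 95% intervals, computed from deposited log2 difference and likelihood ratio, included 0 for all 10 genes. For 9 genes the whole interval lay within a 1.5-fold difference in either direction, and for Nnmt it ran from 0.684-fold to 1.55-fold. All 10 intervals lay within a 2-fold difference.

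**Figure D1:**
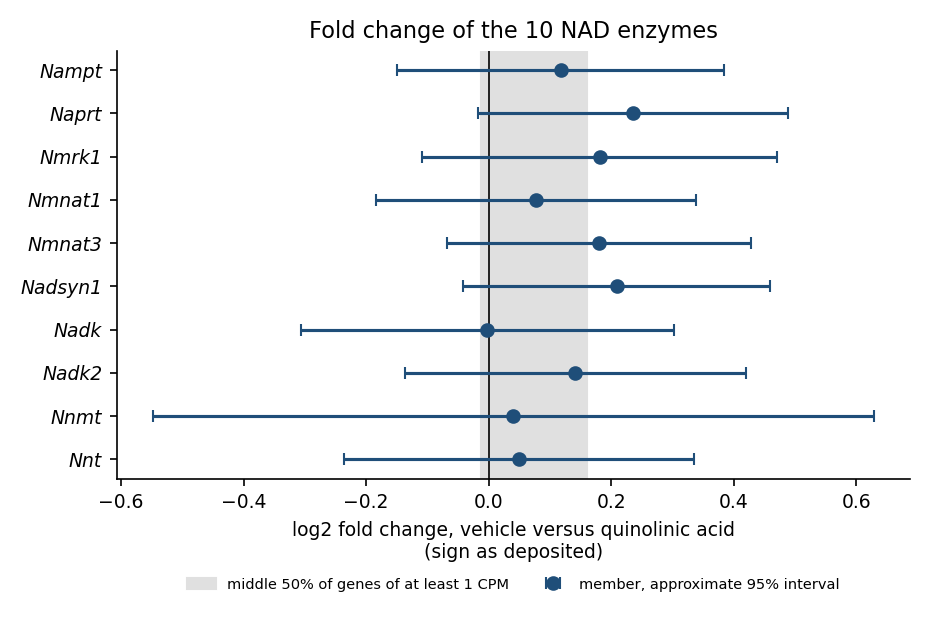
Log2 fold change of the most abundant row of each NAD enzyme (x axis, sign as deposited) with its approximate 95% interval, over a grey band for the middle 50% of genes of at least 1 CPM. Every interval crosses 0, the points run from 0.00 (Nadk) to 0.24 (Naprt), and the interval of Nnmt is the widest.

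The start sites of Nampt and Nadk are printed because Nampt is a known target of the circadian clock, which acts through the E-box CACGTG. Nadk was added because 2 of its starts were among the sequences used. A further coding Nadk row, ENSMUST00000105612.1, begins at 155582495, downstream of both. RefSeq sequences (GRCm38.p6) were matched by symbol for 6 of the 10 genes, with 8 windows of 250 bases before to 50 after a start, and no entry was used for Naprt, Nadk2, Nnmt and Nnt. Given here are the 250 bases before each start on the plus strand, with the E-box CACGTG and the GC box GGGCGG, searched on both strands, in capitals. They lie at chr12:32820085-32820334 for Nampt, chr4:155562131-155562380 for the upstream start of Nadk and chr4:155563565-155563814 for the downstream start.
Nampt: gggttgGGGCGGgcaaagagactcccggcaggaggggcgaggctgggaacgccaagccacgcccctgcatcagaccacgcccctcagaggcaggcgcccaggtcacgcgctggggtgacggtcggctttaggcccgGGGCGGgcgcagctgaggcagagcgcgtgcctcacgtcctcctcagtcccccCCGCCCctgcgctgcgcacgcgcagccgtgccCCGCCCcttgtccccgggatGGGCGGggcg
Nadk, upstream start: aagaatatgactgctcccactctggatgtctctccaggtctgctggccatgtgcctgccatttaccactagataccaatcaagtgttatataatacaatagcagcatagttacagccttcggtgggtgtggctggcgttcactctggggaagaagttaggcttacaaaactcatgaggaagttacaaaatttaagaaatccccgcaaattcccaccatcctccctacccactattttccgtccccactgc
Nadk, downstream start: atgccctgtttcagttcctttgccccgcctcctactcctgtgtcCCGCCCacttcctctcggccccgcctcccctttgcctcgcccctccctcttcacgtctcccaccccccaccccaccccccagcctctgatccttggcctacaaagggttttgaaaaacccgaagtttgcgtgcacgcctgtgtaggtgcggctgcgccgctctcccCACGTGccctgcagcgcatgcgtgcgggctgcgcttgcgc

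The Nampt window held 5 GC boxes and no E-box, and its GC content of 76.3% was at or above that of 97.3% of the windows. An E-box was found in 1 of the members' 8 windows, that of the downstream Nadk start, 40 bases before it, while 7.15% of all 32851 windows hold one. The most abundant Nadk row begins at 155563700, inside that window, so this E-box lies after the start of that row. GC boxes were found in 6 of the 8 windows, from 5 of the 6 genes, and in 35.7% of all windows, and no E-box overlapped a GC box. The 2 Nmnat1 windows are not separate, since they share 262 bases and the same 1 GC box. The Nadk windows differed in base composition, with 46.7% GC at the upstream and 67.0% at the downstream start. The expression values do not separate these starts, since the coding row that begins at the upstream one, ENSMUST00000030939.9, shares 97.4% of its bases with the most abundant row and had the same log2 difference of -0.002 per the authors' deposited table. A match of letters is a description of these windows and not evidence of a bound factor. Sequence outside the windows was not searched, so the lack of an E-box in the Nampt window holds for that window only.

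The enzymes that bring precursors into NAD stood at moderate to high levels. Nampt, nicotinamide phosphoribosyltransferase, which sets the pace of salvage from nicotinamide, is on chromosome 12 (32820335 to 32853349, plus strand, mm10) and has 1 coding row, ENSMUST00000020886.7. Its mean level was 78.9 CPM, and its log2 difference was 0.12 with p = 0.386 and an adjusted p of 0.855 per the authors' deposited table. The approximate 95% interval of that difference ran from -0.15 to 0.38.

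Naprt, nicotinate phosphoribosyltransferase, the entry point of nicotinic acid in the Preiss-Handler route, lies on chromosome 15 (75890956 to 75894481, minus strand). At 19.8 CPM it had the largest fold change and the smallest p of the 10, a log2 difference of 0.24 with p = 0.0672 and an adjusted p of 0.794 per the authors' deposited table. Its interval ran from -0.02 to 0.49. Exons annotated to Eef1d, a translation elongation factor gene on the same strand, cover 277 nt or 14.6% of this row. Eef1d itself had 62.2 CPM and a log2 difference of 0.18 per the authors' deposited table, and reads in the shared stretch cannot be assigned to either gene.

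Nmrk1, the kinase that phosphorylates nicotinamide riboside, lies on chromosome 19 (18631998 to 18652194, plus strand). It had 40.2 CPM and a log2 difference of 0.18 (p = 0.221) per the authors' deposited table, with an interval from -0.11 to 0.47. Its relative Nmrk2, a gene best known from muscle, stood at 0.0201 CPM per the authors' deposited table. Nmnat2 rows with a log2 difference and likelihood ratio of 0 had that same level, so the level alone cannot be told from no reads. The Nmrk2 row itself had a log2 difference of 1.39 (p = 0.253) per the authors' deposited table, unlike those rows. Qprt, which takes in quinolinic acid itself and lies outside the 10 genes, had 33.2 CPM and a log2 difference of 0.10 (p = 0.528) per the authors' deposited table. The 4 entry enzymes of the separate precursors had deposited log2 differences between 0.10 and 0.24, none of them past the test, but with a trend on transcript length and level subtracted Qprt stood at -0.03 and Nmrk1 at 0.04.

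Both mononucleotide adenylyl transferases that were abundant enough to measure differed little. Nmnat1, the nuclear enzyme that joins the mononucleotide to ATP, is on chromosome 4 (149467572 to 149485202, minus strand), with 7.73 CPM and a log2 difference of 0.08 (p = 0.561) per the authors' deposited table. Nmnat3, the form described in mitochondria, is on chromosome 9 (98296583 to 98411434, plus strand), with 8.98 CPM and a log2 difference of 0.18 (p = 0.156) per the authors' deposited table. The intervals, -0.18 to 0.34 and -0.07 to 0.43, overlapped over most of their length. Nmnat2, the neuronal form, was measured at 0.153 CPM with a log2 difference of -0.33 (p = 0.384) per the authors' deposited table.

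Nadsyn1, NAD synthetase, turns the acid form made from quinolinic or nicotinic acid into NAD. It lies on chromosome 7 (143795584 to 143822841, minus strand). At 11.0 CPM its log2 difference was 0.21 with p = 0.101 and an adjusted p of 0.794 per the authors' deposited table, with an interval from -0.04 to 0.46. Naprt and Nadsyn1, which share the acid branch, thus had the 2 smallest p-values of the 10, and both missed the unadjusted threshold. Qprt, which feeds the same branch but lies outside the 10, had p = 0.528 per the authors' deposited table. With a trend on transcript length and level subtracted, Nampt, outside that branch, stood at 0.10, beside 0.10 for Naprt and 0.11 for Nadsyn1.

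The kinases that make NADP had different signs and intervals that overlapped. Nadk, the cytosolic NAD kinase on chromosome 4 (155563700 to 155591001, plus strand), had 67.1 CPM and a log2 difference of 0.00 (p = 0.990), the 1 negative sign among the 10 at -0.002 per the authors' deposited table. Nadk2, the mitochondrial NAD kinase on chromosome 15 (9071260 to 9110487, plus strand), had 32.5 CPM and a log2 difference of 0.14 (p = 0.317) per the authors' deposited table. The intervals were -0.31 to 0.30 for Nadk and -0.14 to 0.42 for Nadk2.

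Nnt, the proton-driven transhydrogenase of the inner mitochondrial membrane, passes electrons from NADH to NADP. On chromosome 13 (119335448 to 119408997, minus strand) it had 43.1 CPM and a log2 difference of 0.05 (p = 0.734) per the authors' deposited table, with an interval from -0.24 to 0.33. The C57BL/6J strain, from which the mm10 reference comes, carries a deletion inside Nnt, so exons lost in that strain are absent from the annotation as well, and the labels do not name the strain of these mice.

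Nnmt, which methylates nicotinamide and so removes it from salvage, was the least abundant member by CPM. It is on chromosome 9 (48591877 to 48605153, minus strand), with 3.29 CPM and a log2 difference of 0.04 (p = 0.893) per the authors' deposited table. Its standard error of 0.30 was more than 1.5 times that of any other member, and its interval ran from -0.55 to 0.63. Nnmt is strongly expressed in fat and liver, whose markers were measured here as well: 5 of 8 adipocyte and 5 of 8 hepatocyte markers had an unadjusted p under 0.05, all with a positive sign and none called after adjustment. Over all 27876 genes, at any level, 5.12% had an unadjusted p under 0.05. Among markers of at least 1 CPM the counts were 1 of 4 for adipocytes and 2 of 5 for hepatocytes. Adipoq, the adiponectin gene, had a log2 difference of 4.55 at 0.216 CPM, and Alb, the albumin gene, one of 1.27 at 6.53 CPM per the authors' deposited table. The adipocyte and hepatocyte markers had median levels of 0.781 and 4.44 CPM, the lowest being Lep at 0.0583 CPM. Naprt and Nadsyn1, with log2 differences of 0.24 and 0.21, are high in liver too. The part of these tissues in the values of Nnmt, Naprt and Nadsyn1 was not tested.

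Levels can be compared between genes only per transcript length. Per 1000 nt, Nmrk1 stood highest at 22.8 CPM, followed by Nadk at 21.3, Nampt at 17.4 and Nnt at 12.4. Naprt (10.4) and Nadk2 (8.72) came next in CPM per 1000 nt, then Nadsyn1 (4.18), Nmnat3 (4.15), Nnmt (3.15) and Nmnat1 (2.91). Qprt, at 16.2 CPM per 1000 nt, fell between Nampt and Nnt. The lowest entry enzyme, Naprt at 10.4, thus stood above NAD synthetase and both mononucleotide adenylyl transferases, through which the products pass. Their most abundant rows reached 4.18 at most. Other rows of these genes ran higher, up to 5.40 for the Nadsyn1 row ENSMUST00000155088.1, which retains an intron. Reads in the 14.6% of the Naprt row shared with Eef1d (62.2 CPM) may add to the Naprt level. Qprt, the next lowest entry enzyme, also stood above 4.18. These are means over both groups without a spread, so which neighbours in this order differ cannot be told, and RNA level is not enzyme activity.

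**Figure D2:**
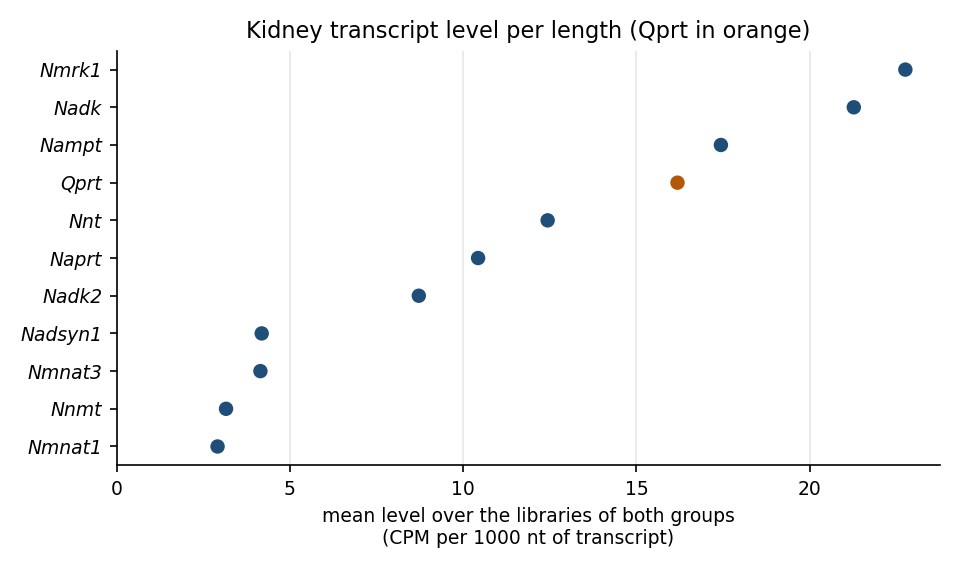
Mean level over the libraries of both groups (x axis, CPM per 1000 nt of the most abundant transcript) for the 10 NAD enzymes in blue and Qprt in orange, ordered by level. Nmrk1 and Nadk stand above 20, while Nadsyn1, Nmnat3, Nnmt and Nmnat1 stand below 5.

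The rows of a gene did not all carry the same value. The 4 near-identical Nadk2 rows had mean levels of 32.5 CPM and log2 differences of 0.14 per the authors' deposited table, so rows that overlap carried nearly the same numbers. Rows of a gene share reads and are no independent measurements, and differences between them were not tested. The 42 rows beyond the most abundant ones were all at 0.1 CPM or more, and 16 of the 52 rows had a negative sign.

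Rows that stop early were lower. A row was called short if its 3' end lay over 20% of the gene span before that of the most abundant row, a rule chosen after the values were seen. All 18 short rows, from 7 genes, had a lower log2 difference than the most abundant row of their gene, by a median of -0.18 and a range from -0.47 to -0.02. Of the 24 other rows 18 were also lower, but by a median of only -0.01. The same pattern runs through the table: over 17569 short rows of 6289 genes 88.6% were lower, with a median difference of -0.18, against 57.1% and 0.00 for 25650 other rows. The NAD enzymes are thus no exception to the rest of the transcripts in this respect.

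Nadk showed the widest split. Its 3 long coding rows had 65.8 to 67.1 CPM and log2 differences from -0.002 to 0.01, the 0.01 belonging to ENSMUST00000105612.1, the 1 Nadk row with a positive sign per the authors' deposited table. Its 4 short rows, which cover the first exons only, had 0.693 to 2.11 CPM and log2 differences of -0.38, -0.44, -0.44 and -0.47 per the authors' deposited table. Each of these had an interval that included 0, the lowest being -1.07 to 0.14 for ENSMUST00000143840.1 (p = 0.131) per the authors' deposited table. One more row, ENSMUST00000152297.1, lies inside the 3' part and had a log2 difference of -0.14 at 14.7 CPM per the authors' deposited table.

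Nnt split in the same way. Its 2 most abundant coding rows had log2 differences of 0.05 and 0.06, at 43.1 and 41.6 CPM per the authors' deposited table. The coding row ENSMUST00000109204.3, which stops before their shared 3' end, had -0.11 at 15.7 CPM per the authors' deposited table. The rows ENSMUST00000133627.3 and ENSMUST00000144599.1, which keep an intron near the 5' end, had -0.26 and -0.20 at 4.25 and 3.98 CPM per the authors' deposited table. The smallest p among these 3 was 0.284.

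In the remaining genes the spread was narrower. Nmrk1 had 0.18 and 0.17 in its 2 coding rows and -0.03 and -0.10 in 2 rows that retain an intron per the authors' deposited table. In Nmnat3 the 2 abundant rows both stood at 0.18, and 1 intron-retaining row of 0.510 CPM had -0.01 per the authors' deposited table. The 8 Nadsyn1 rows were all positive, from 0.04 to 0.21, as were the 9 Nadk2 rows, from 0.03 to 0.14, and the 4 Nmnat1 rows, from 0.06 to 0.08 per the authors' deposited table. Nnmt had 0.04 and 0.02 in its coding rows and -0.04, -0.12 and -0.06 in the 3 others, and the first 2 of those 3 end within 14 nt of the 3' end of the most abundant row per the authors' deposited table. Nampt and Naprt had 1 row each.

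**Figure D3:**
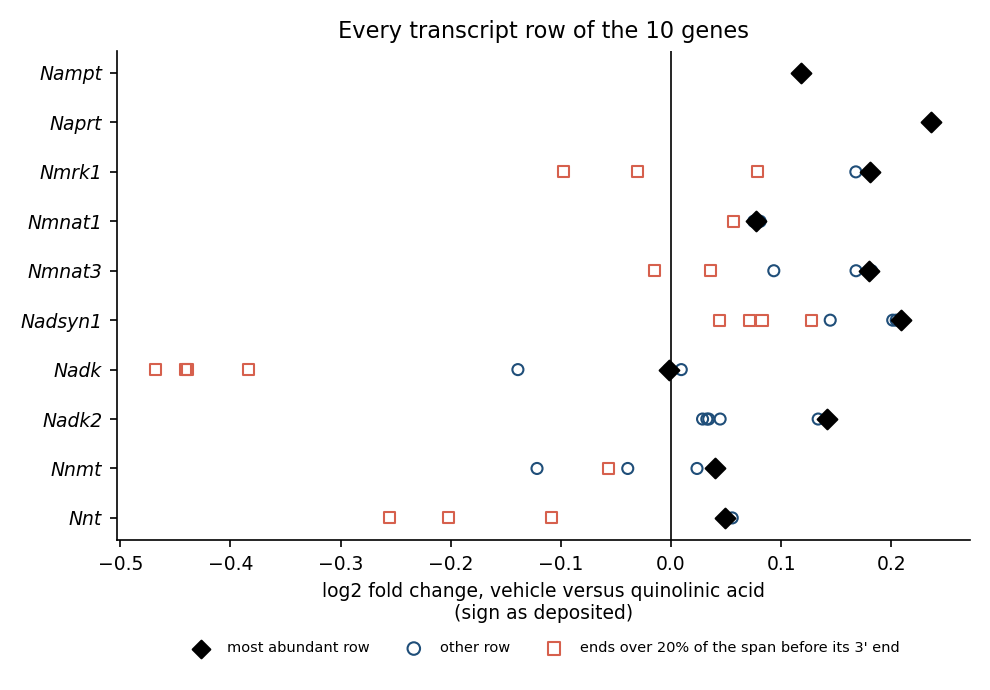
Log2 fold change of each of the 52 transcript rows (x axis, sign as deposited) by gene: black diamonds mark the most abundant row, red squares the 18 rows that end over 20% of the gene span before its 3' end, and blue circles the others. Each red square lies to the left of its gene's diamond, farthest in Nadk, where the 4 squares lie between -0.47 and -0.38.

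Transcript length moved with the fold change as well. Over the 11638 coding genes of at least 1 CPM the rank correlation of the log2 difference with length was -0.53, a description across genes that share their libraries. The median log2 difference was 0.15 for transcripts of 1000 nt up to 2000 nt, 0.08 from 2000 nt up to 4000 nt and 0.01 from 4000 nt up to 6000 nt. The members' most abundant rows measured 1043 nt (Nnmt) to 4527 nt (Nampt). With a trend on length and level subtracted, the members' median log2 difference was 0.05 instead of 0.13, and 6 instead of 9 of the 10 had a positive sign. Nadsyn1 (0.11), Naprt (0.10), Nampt (0.10) and Nadk2 (0.09) then had the highest log2 values, while Nnmt stood at -0.13, Nadk at -0.07, Nmnat1 at -0.02 and Nnt at -0.01.

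**Figure D4:**
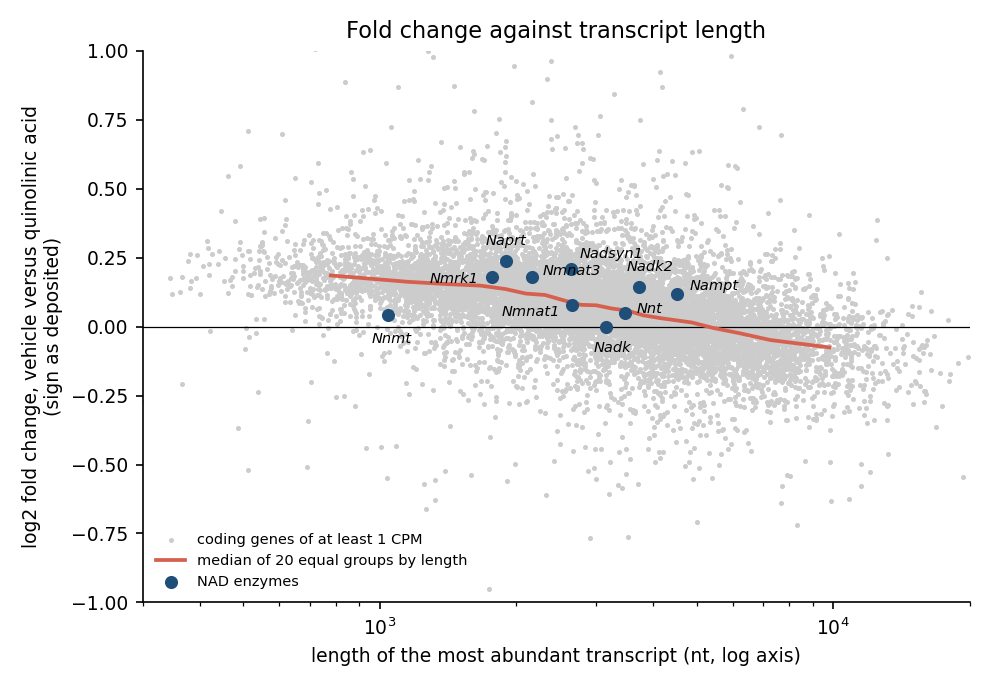
Log2 fold change (y axis, sign as deposited) against the length of the most abundant transcript (x axis, nt, log scale) for coding genes of at least 1 CPM in grey, with the median of 20 equal groups by length as a red line and the NAD enzymes in blue. Nnmt lies below the line and Nampt, the longest member at 4527 nt, above it; 35 genes fall outside the axes.

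Genes around these enzymes showed the same lack of calls. Of 20 other genes of NAD synthesis and handling, 14 were positive, 6 negative and 0 called, and the median log2 difference was 0.09, or 11 positive with a median of 0.03 once the trend was subtracted. Slc29a1, an equilibrative nucleoside transporter, was the 1 gene among them with an unadjusted p under 0.05. It had a log2 difference of 0.28 at 15.7 CPM (p = 0.0197, adjusted p 0.788) per the authors' deposited table. That is 1 of the 14 listed genes of at least 1 CPM, beside 4.09% of all genes at that level. Slc25a51, which carries NAD into mitochondria, had 81.7 CPM and 0.09, and Slc5a8, a sodium-coupled transporter that accepts nicotinate, 112 CPM and 0.00 as log2 difference per the authors' deposited table.

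Of 19 NAD-consuming enzymes, 13 were positive, 6 negative and 0 called, and the median was 0.09, but with the trend subtracted 5 were positive and 14 negative, with a median of -0.03. Only Sirt5, the mitochondrial desuccinylase (0.30, p = 0.0374), and Cd38, the NAD glycohydrolase (0.42, p = 0.0470), had an unadjusted p under 0.05, with these log2 differences per the authors' deposited table. That is 2 of the 18 consumers of at least 1 CPM, beside 4.09% of all genes at that level.

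Upstream, 8 enzymes of the tryptophan route were split at 4 positive and 4 negative signs, with a median of 0.02, which was -0.06 with 3 positive signs once the trend was subtracted. Kynureninase, Kynu, had a log2 difference of 0.69 at 2.61 CPM (p = 0.0007, adjusted p 0.368) per the authors' deposited table. Tdo2, the hepatic tryptophan dioxygenase, had one of 1.98 at 0.0930 CPM (p = 0.0149) per the authors' deposited table. These were 2 of 8 with an unadjusted p under 0.05, beside 5.12% of genes at any level. At 1 CPM or more it was 1 of 6, beside 4.09%. Of the 12 sources of NADPH, 10 were positive and 0 had an unadjusted p under 0.05, with 0.10 as their median, or 8 positive and a median of 0.01 with the trend subtracted. Their smallest p-values belonged to the malic enzyme Me2 (0.26, p = 0.140) and the mitochondrial folate enzyme Aldh1l2 (-0.34, p = 0.150), given with their log2 differences per the authors' deposited table.

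The methyl donor cycle, which supplies the S-adenosylmethionine that Nnmt spends, had 8 positive and 4 negative signs among 12 genes, with a median of 0.09, but 5 positive and 7 negative signs with a median of -0.04 once the trend was subtracted. Mtr, methionine synthase, had a log2 difference of -0.33 at 4.83 CPM (p = 0.0122), and Mat1a, the liver form of methionine adenosyltransferase, one of 2.65 at 0.162 CPM (p = 0.000367) per the authors' deposited table. These were 2 of 12 with an unadjusted p under 0.05, beside 5.12% of genes at any level. At 1 CPM or more it was 1 of 9, beside 4.09%. Neither Mtr nor Mat1a was called, and Mat1a is expressed in hepatocytes, whose markers are given above. Mat2a, the form used outside the liver, stood at 172 CPM and -0.10 per the authors' deposited table.

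Nampt is a textbook output of the circadian clock, switched on by CLOCK and BMAL1 at E-box sequences. Of 11 clock genes, 0 were called and 4 had an unadjusted p under 0.05, on both sides of 0, beside 4.09% of genes of at least 1 CPM, a level that all 11 reached. The activators Arntl, which encodes BMAL1, and Clock had log2 differences of -0.77 (p = 0.00383) and -0.27 (p = 0.00998) per the authors' deposited table. The repressors Cry1 and Per2 had 0.69 (p = 0.00308) and 0.50 (p = 0.00503) per the authors' deposited table. Nampt stood between them at 0.12, a link to the clock genes was not tested, and the times at which the kidneys were taken are not given in the labels. Among 8 regulators reported for NAD enzymes the smallest p-values were those of Nfe2l2, which encodes NRF2 (0.20, p = 0.135), and Ppara, the fatty acid sensor (-0.40, p = 0.146), as log2 differences per the authors' deposited table.

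**Figure D5:**
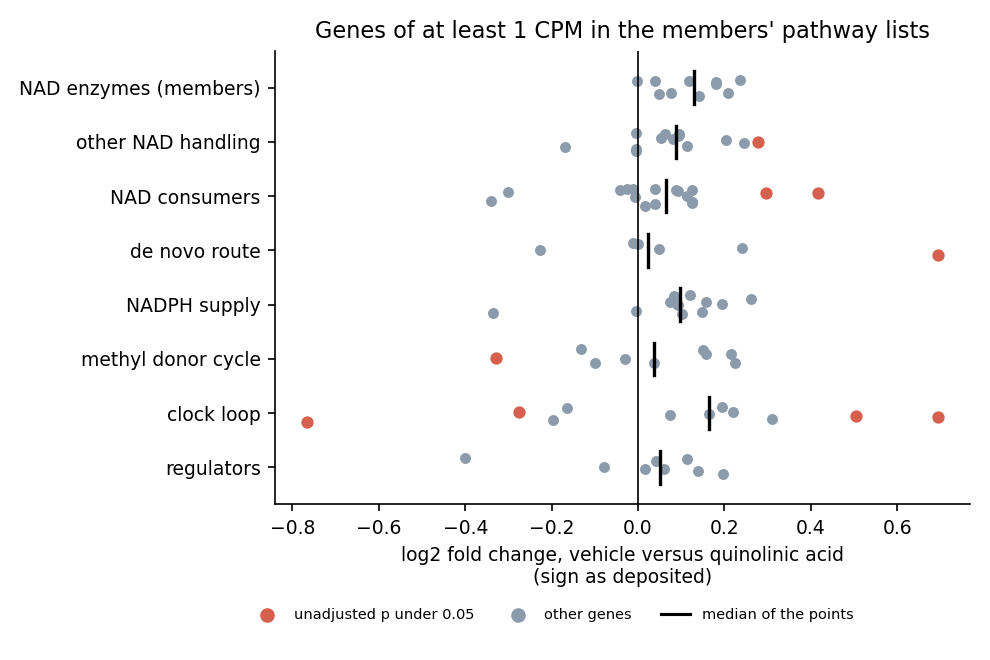
Log2 fold change (x axis, sign as deposited) of genes of at least 1 CPM in the NAD enzymes and 7 related lists, 1 point per gene, with a black bar at the median and red points at an unadjusted p under 0.05. The NAD enzymes lie between 0.00 and 0.24 with no red point, while the clock list holds 2 red points on either side of 0.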

How the data were processed

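RNA of 10 mouse kidneys, 5 per group by the treatment in the sample titles, was compared by the authors in 1 finished table. STAR 2.5.3a, featureCounts of Subread 1.4.6, edgeR and mm10 are named, per the submitters' processing notes. Strand setting, filters and annotation release are not given in the sources used here. For each GENCODE transcript the deposited columns are, per the file headers, log2 fold change, mean log2 CPM, a likelihood-ratio score, a p-value and its Benjamini-Hochberg adjusted value, and an adjusted value under 0.05 made a call. The deposited p equalled the chi-square tail (1 degree of freedom) of the score.

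Identifiers without version were joined to GENCODE vM21, which gave symbols, lengths and GRCm38 coordinates for 83446 of the 85107 rows. The standard error was the absolute log2 fold change over the square root of the score. A loess trend (span 0.5) on log2 length and mean level was fitted in R 4.3.3 on 1 row per gene. Python 3.11.15, pandas 2.3.3, numpy 2.4.6, scipy 1.17.1 and matplotlib 3.10.9 did the rest. The trend removal and adjustment were tested on data simulated for the vehicle versus quinolinic acid contrast (13115 genes), with independent normal noise per gene. They recovered 58.8% of log2 changes of 0.5, 92.4% of log2 changes of 1 and 100% of log2 changes of 2. The simulated trend ran on length alone, over genes of at least 1 CPM, while the fit applied to the members covered all 27876 genes. The adjustment there covered 1 row per gene, not the 85107 overlapping rows of the deposited test. These shares therefore do not give the power of the deposited calls.

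The members and gene lists were chosen with earlier results of these data known. All members were named, and of each list the genes with an unadjusted p under 0.05, or else those with the 2 smallest p, with Qprt and Nmnat2 in any case. Further rows were named where their sign differed from that of the most abundant row. Eef1d, Nmrk2, Slc25a51, Slc5a8, Mat2a, the further Nadk and Nnt rows of like sign, and the markers named were added after their values were seen.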

Additional observations from a re-analysis of the deposited data

How the results depend on the processing

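The count of 0 called members held at an adjusted p under 0.1, with adjustment over 1 row per gene or over genes at 1 CPM or more, with the coding row of each gene and with the length and level trend removed, where the smallest adjusted p among the members ran from 0.794 to 1. The count of 0 at an unadjusted p under 0.05 held with the trend removed. With the coding row it could not differ, since that was the same row. The members' median log2 fold change of 0.13 was 0.10 with the median over all rows of a gene and 0.05 with the trend removed. For single members the coding row was the main row itself in all 10 genes, so that alternative could not differ. The longest transcript was also that row or, for Nadk2, a row that shares its reads and had the same value. Only removal of the trend could change a sign, and 7 of the 10 members kept theirs. The 3 that did not, all with the trend removed, were -0.018 for Nmnat1, -0.13 for Nnmt and -0.012 for Nnt, none of them past the test. In the same comparison, added after seeing the data for 7 related lists and Qprt, the log2 median turned to -0.031 for the NAD consumers, -0.064 for the tryptophan route and -0.040 for the methyl donor cycle, and Qprt turned to -0.030. No paired analysis was possible because the values are those of a finished comparison, and for the same reason no replicate was left out. Depth per library is unknown, so the precision rests on the deposited statistics alone.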
